A study of Homo sapiens with 8 samples.

Results

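In 697 cells, a line grown from human pre-B leukaemia, 3865 regions of the genome held peaks of MTA2, HDAC2, IKAROS and AIOLOS and no peak of Mi2, OCAB or OCT2. They were selected on peak presence alone: the peaks of 7 deposited lists were merged where they shared at least 1 bp, and a region was kept if the first 4 proteins were present and the other 3 absent. This gave 3865 of 74123 merged regions, or 5.21%. Because presence chose the regions, the co-occurrence of the 4 proteins is not a result here, and every peak height below comes from the lists that chose them and is given as description.

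The study mapped protein binding by chromatin immunoprecipitation and sequencing (ChIP-seq), in which DNA bound by a protein is pulled down with an antibody and read. There were 8 libraries of 697 cells, namely 1 library for each of 7 antibodies and 1 input library of DNA with no pull-down. No groups of animals, genotypes or treatments were compared, and all libraries come from this 1 line. With 1 library an antibody there is no replicate check, so no test between proteins was made and the 95% Wilson intervals on shares cover counting error only.

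MTA2, HDAC2 and Mi2 are subunits of NuRD, a complex that couples nucleosome remodelling by Mi2 (CHD4) to removal of histone acetyl groups by HDAC2, with MTA2 as the scaffold that holds the deacetylase. HDAC2 also works in other complexes. IKAROS and AIOLOS are closely related zinc-finger transcription factors of lymphocytes that bind GGAA-containing DNA and are known to recruit NuRD. OCT2 is a POU-domain factor that binds octamer DNA, where OCAB, a coactivator found in B cells, joins it. The regions described here therefore carry the scaffold and the deacetylase with both IKAROS family factors, at sites where the remodeller was not called. Genes and sequences at the regions were not analysed here, since the coordinates are on build hg19 and no hg19 annotation or genome was used.

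A region with all 4 proteins often held more. Of 9002 regions with MTA2, HDAC2, IKAROS and AIOLOS, the 3865 described here were 42.9% (41.9 to 43.96). OCT2 was the commonest single addition, in 1727 regions, followed by Mi2 alone in 1049 and OCAB alone in 238. Mi2 and OCT2 together were added in 905, OCAB and OCT2 in 644, Mi2 and OCAB in 92, and all 3 in 482. The 3865 regions took up 24.0% of the 16125 HDAC2 peaks, 13.4% of the 28760 MTA2 peaks, 10.1% of the 38101 AIOLOS peaks and 7.16% of the 53948 IKAROS peaks. One region held a pair of HDAC2 peaks, and in the other 3864 each protein had 1 peak. The merged regions had a median width of 390 bp, with an interquartile range of 347 to 467 bp.

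The lists differ in depth and strictness, which bears on what counts as absent. The MTA2 and IKAROS libraries held 22.8 and 23.4 M tags, the AIOLOS library 16.1 M and the HDAC2 library 10.9 M. Mi2, OCAB and OCT2 were read to 18.5, 17.6 and 18.3 M tags. The highest p-value over input in the HDAC2 list was 9.5e-05, against at most 8.92e-10 in each of the other 6 lists. The steps of the deposited input values point to an input of about 19.9 M tags behind the HDAC2 list and of 21.2 to 21.3 M behind AIOLOS, Mi2, OCAB and OCT2, so HDAC2 was called against an input of another size. For the 6 lists other than HDAC2, the sources used here give no calling parameters. HDAC2 was thus both the shallowest and the most loosely called of the 4 proteins. An absent peak in any list means a signal below that list's limits, not a lack of the protein.

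The DNA-binding factors gave the highest peaks in these regions. Peak height is the number of tags in a peak per 10 M tags of the library, and heights of different antibodies also depend on how well each antibody works. IKAROS peaks had a median of 47.5, with an interquartile range of 29.9 to 74.0 and the extremes at 6.84 and 2844. AIOLOS peaks had a median of 37.3 (interquartile range 23.0 to 59.1, extremes 6.85 and 2942). The NuRD subunits were lower: MTA2 had a median of 18.4 (14.0 to 25.8, extremes 5.69 and 357.7) and HDAC2 a median of 14.7 (11.9 to 18.3, extremes 8.25 and 148.4). The order IKAROS, AIOLOS, MTA2, HDAC2 from high to low was found in 2107 regions (54.5%). The order IKAROS, AIOLOS, HDAC2, MTA2 followed in 685 (17.7%), and AIOLOS, IKAROS, MTA2, HDAC2 in 421 (10.9%).

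Against the whole list of each protein, the regions stood high for IKAROS and AIOLOS and near the middle for the NuRD subunits. The top 25% of the IKAROS list began at a height of 38.5, and 62.4% of the regions (60.9 to 64.0) had an IKAROS peak in it, where 25.2% of all IKAROS peaks lie by construction. For AIOLOS the share was 44.7% (43.1 to 46.3) against 25.3% of the list, from a height of 40.5. For MTA2 it was 29.96% (28.5 to 31.4) against 25.2%, from a height of 24.1, and for HDAC2 22.5% (21.3 to 23.9) against 26.1%, from a height of 19.2. The IKAROS and AIOLOS shares were thus above the background share, the MTA2 share was a little above it, and the HDAC2 share was slightly below it. With peaks ranked by fold over input in place of height, IKAROS and AIOLOS stayed above at 44.4% and 32.8%, while MTA2 passed to below at 20.7%. The HDAC2 share passed to above 25% under a limit of 8-fold over input (28.1%, 25.9 to 30.3). It also did so with peak centres required within 100 bp of the MTA2 centre (28.8%) and among the 4000 highest peaks of each list (32.4%). The background share, 26.1% for the whole HDAC2 list, was not computed anew for the 8-fold and 4000-peak lists. The interval at 8-fold includes 26.1%. No direction is therefore read for MTA2 or HDAC2 from this measure. All 4 peaks lay in the top 25% of their lists in 462 regions (11.95%), and none did in 1187 (30.7%).

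**Figure D1:**
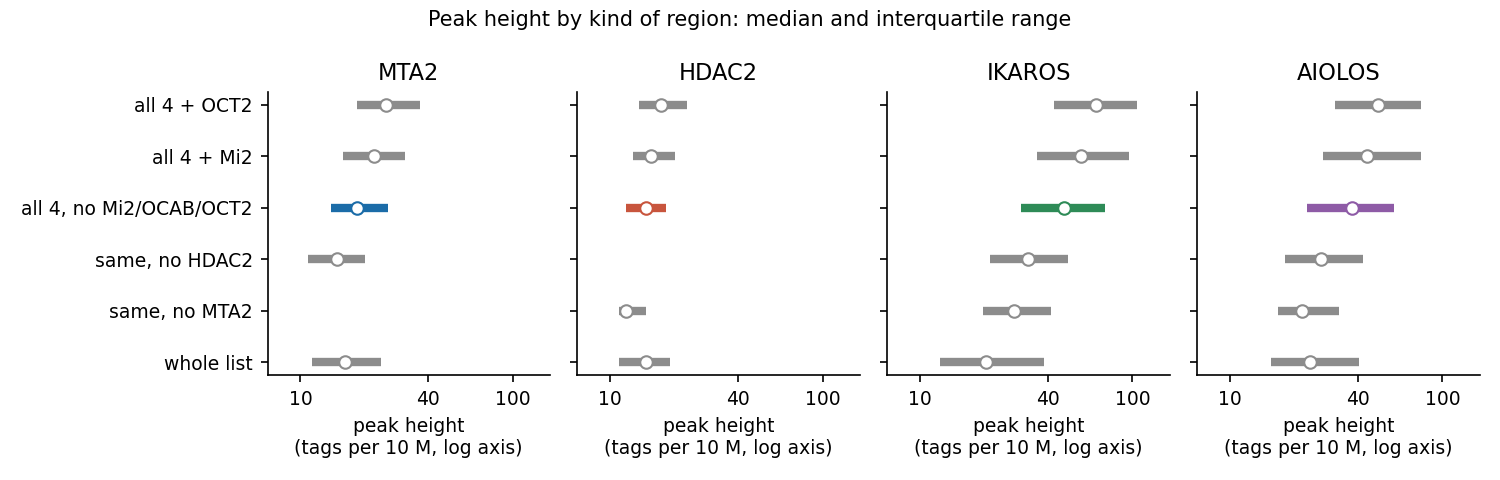
Peak height (tags per 10 M, logarithmic horizontal axis) of MTA2, HDAC2, IKAROS and AIOLOS in 6 kinds of region; circles are medians and bars interquartile ranges, 1 library an antibody. "Same, no HDAC2" and "same, no MTA2" lack that protein and also Mi2, OCAB and OCT2. The 3865 regions (in colour) lie above those that lack HDAC2 or MTA2 and below those with added Mi2 or OCT2 for each protein drawn.

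Regions that lacked one NuRD subunit had lower peaks of the proteins that remained. In the 7607 regions with MTA2, IKAROS and AIOLOS but no HDAC2, the median heights were 14.9 for MTA2, 32.1 for IKAROS and 26.8 for AIOLOS. The 3865 regions with HDAC2 were 1.24-fold higher for MTA2, 1.48-fold for IKAROS and 1.39-fold for AIOLOS. Measured against the 1196 regions without MTA2, they were 1.24-fold higher for HDAC2, 1.71-fold for IKAROS and 1.71-fold for AIOLOS. On fold over input in place of height, this HDAC2 ratio was 1.028, so that step nearly vanished. The IKAROS and AIOLOS ratios were then 1.575 and 1.599. The ranges overlapped widely: 30.6% of the regions without HDAC2 had an MTA2 peak above the median of the regions with it, and 26.8% an IKAROS peak above it. The contrast was larger for the factors alone, since the 11304 regions with only IKAROS and AIOLOS gave ratios of 2.32 for IKAROS and 2.06 for AIOLOS.

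Regions to which a further protein was added had higher peaks still. In the 1049 regions with Mi2 as well, the medians were 22.3 for MTA2, 15.6 for HDAC2, 57.3 for IKAROS and 44.2 for AIOLOS. The regions without Mi2 stood at 0.825, 0.942, 0.829 and 0.844 times these values. The HDAC2 medians were 16 tags without Mi2 and 17 with it, so the HDAC2 step was the smallest between whole counts. With a limit of 8-fold over input in every list the ratio was 1.00 for HDAC2, 1.01 for AIOLOS, 0.951 for IKAROS and 0.905 for MTA2. The step to Mi2 was thus lost there for HDAC2 and AIOLOS and smaller for IKAROS and MTA2. The regions compared there are in part others, since weaker Mi2, OCAB and OCT2 peaks no longer counted. In the 1727 regions with OCT2 added, the corresponding ratios were 0.724 for MTA2, 0.845 for HDAC2, 0.708 for IKAROS and 0.749 for AIOLOS. In the 238 with OCAB added they were 0.856, 1.00, 0.988 and 0.895, so HDAC2 and IKAROS hardly differed from the regions without OCAB. A protein with a low peak is called less readily, so the part of peak calling in these steps was not tested.

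The median height ratios of paired proteins were close to those of all regions holding both. IKAROS was at least 2-fold higher than AIOLOS in 167 of the 3865 regions (4.32%), against 3.71% of all 32931 regions with both. AIOLOS was at least 2-fold higher in 21 (0.543%), against 1.14%. The median ratio of IKAROS to AIOLOS height was 1.27 here and 1.22 in all regions with both, and that of MTA2 to HDAC2 was 1.26 here and 1.34 in all. MTA2 was at least 2-fold higher than HDAC2 in 463 regions (11.98%), against 15.9% of all 10665 regions with both, and HDAC2 was at least 2-fold higher than MTA2 in 11 (0.285%), against 0.431%. The shares leaning to AIOLOS over IKAROS and to MTA2 over HDAC2 were thus below their backgrounds. The share leaning to IKAROS (3.72 to 5.01) was a little above its background. The interval of the share leaning to HDAC2 (0.159 to 0.509), from 11 regions, included its background.

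Peak heights rose together from region to region. Across the 3865 regions, which share 1 library a protein and the local mappability and copy number of the line, the rank correlation was 0.90 for IKAROS and AIOLOS. It was 0.61 for MTA2 and AIOLOS, 0.58 for MTA2 and IKAROS, 0.56 for MTA2 and HDAC2, 0.50 for HDAC2 and IKAROS and 0.48 for HDAC2 and AIOLOS. The related zinc-finger factors were thus ranked nearly alike, and MTA2 and HDAC2 were ranked about as alike as MTA2 and either factor. The order of these last values turned at 8-fold or more over input, with 0.74 for MTA2 and HDAC2 and 0.71 for MTA2 and IKAROS. On fold over input the values were lower, at 0.81 for IKAROS and AIOLOS and 0.44 for MTA2 and HDAC2. In the 1049 regions with Mi2 they were 0.94 and 0.62 on height.

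The regions with the tallest MTA2 peaks show the same relation and its exceptions. Among the 405 regions in the highest 10% by MTA2 (at least 35.5), 86.4% had an HDAC2 peak above the median of all 3865, 86.2% an IKAROS peak and 88.9% an AIOLOS peak. Among the 391 in the lowest 10% (at most 10.9) the shares were 13.8%, 9.21% and 12.3%. In 15 of the 405 (3.70%), however, both IKAROS and AIOLOS lay in the lowest 25% of the 3865. The same share over all 3865 regions was not computed, so these 15 are given as examples only. The tallest MTA2 peaks, described next, include examples of such regions.

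**Figure D2:**
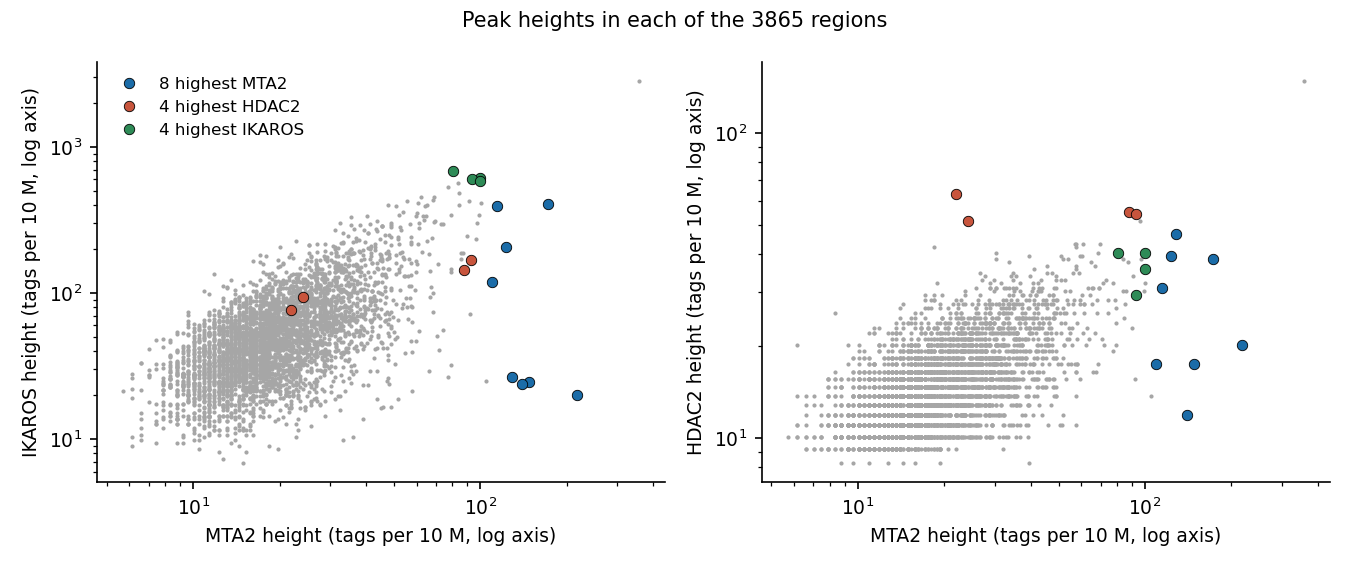
Height of IKAROS (left) and HDAC2 (right) against height of MTA2 in each of the 3865 regions (tags per 10 M, both axes logarithmic); grey points are regions and coloured points those with the 8 highest MTA2, 4 highest HDAC2 and 4 highest IKAROS peaks on chromosomes 1 to 22 and X at 4-fold or more over input. In 4 of the 8 highest MTA2 regions IKAROS lies between 20.1 and 26.5 while MTA2 lies between 128.7 and 217.6; the point at the upper right lies on a contig assigned to chromosome 17 without a position.

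The tallest MTA2 peak on the placed chromosomes was on chromosome 1, 36689206 to 36690077 (hg19, as are all coordinates here). Its MTA2 height was 217.6, with HDAC2 at 20.2, IKAROS at 20.1 and AIOLOS at 18.7. MTA2 was thus far above its own median while both factors were below theirs, and the 4 centres spread over 587 bp, with 1 link between peaks of a single base pair. The next was chromosome 1, 186344378 to 186344872, with MTA2 at 172.5, HDAC2 at 38.5, IKAROS at 405.0 and AIOLOS at 406.5. Here all 4 proteins were high.

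Of the 8 tallest MTA2 regions on the placed chromosomes, 4 had IKAROS below its median and 4 had AIOLOS below its median, while 7 had HDAC2 above its median. Chromosome 19, 38085412 to 38085809, had MTA2 at 148.0, HDAC2 at 17.4, IKAROS at 24.8 and AIOLOS at 23.7, and an OCT2 peak lay 0.091 kb outside it. Chromosome 17, 78120915 to 78121410, had MTA2 at 139.7, HDAC2 at 11.9 from 13 tags, IKAROS at 24.0 and AIOLOS at 17.4. Chromosome 19, 14378123 to 14378500, had MTA2 at 128.7, HDAC2 at 46.7, IKAROS at 26.5 and AIOLOS at 21.2. In this last region both NuRD subunits were high and both factors low, with the centres within 90 bp of each other. The remaining 3 of the 8 had MTA2 between 109.5 and 123.0 and IKAROS between 119.3 and 394.3.

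On chromosomes 1 to 22 and X, none of the 4 tallest HDAC2 regions was among the 8 tallest for MTA2. Chromosome 19, 50490415 to 50490736, had HDAC2 at 63.2 from 69 tags, MTA2 at 21.9, IKAROS at 76.6 and AIOLOS at 52.9. Chromosome 3, 10501833 to 10502191, had HDAC2 at 51.3, MTA2 at 24.1, IKAROS at 93.7 and AIOLOS at 56.0. In these 2 regions HDAC2 was 2.89 and 2.13 times MTA2, the largest ratios among regions with MTA2 above its median. Chromosome 5, 55988580 to 55989004, combined HDAC2 at 55.0 with MTA2 at 88.0, IKAROS at 144.6 and AIOLOS at 130.1. The lowest ratios of HDAC2 to MTA2, from 0.0852 to 0.118, were all in tall MTA2 regions already described, on chromosomes 1, 17 and 19.

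Of the 4 regions with the tallest IKAROS peaks, 2 were also among the 4 with the tallest AIOLOS peaks. Chromosome 14, 81408050 to 81408368, led both lists with IKAROS at 689.4 and AIOLOS at 616.9, beside MTA2 at 80.6 and HDAC2 at 40.3. Its 4 centres lay within 11 bp and its width of 318 bp is that of a single HDAC2 peak. Chromosome 16, 22309653 to 22309985, was second for both, with IKAROS at 615.4, AIOLOS at 588.3, MTA2 at 99.8 and HDAC2 at 35.7. All 4 proteins were thus above their medians in both of these regions. The others were on chromosomes 22 (24951769 to 24952108) and 11 (71098869 to 71099203) for IKAROS, and on chromosome 19 (36618725 to 36619067 and 35224871 to 35225205) for AIOLOS. The 4 tallest IKAROS regions had MTA2 between 80.6 and 99.8 and HDAC2 between 29.3 and 40.3.

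Few regions separated the related factors. The largest ratio of IKAROS to AIOLOS among regions with IKAROS above its median was 3.81, on chromosome 14, 88255505 to 88255865, with IKAROS at 68.9, AIOLOS at 18.1, MTA2 at 20.6 and HDAC2 at 14.7. The smallest among the same regions was 0.431, on chromosome 18, 61034782 to 61035343, with IKAROS at 70.1, AIOLOS at 162.5, MTA2 at 29.3 and HDAC2 at 11.0. Among regions with IKAROS above its median, the 3 leaning most to AIOLOS had HDAC2 between 8.25 and 11.0, all below its median, from 9 to 12 tags. The 3 leaning most to IKAROS had HDAC2 at 14.7, 17.4 and 11.9, from 16, 19 and 13 tags. HDAC2 height was not compared over all regions leaning to either factor.

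Whether HDAC2 was found beside the other 3 proteins varied with their height. Of the 11472 regions with MTA2, IKAROS and AIOLOS and none of Mi2, OCAB and OCT2, 33.7% held HDAC2. Divided into 10 equal classes by MTA2 height, 12.9% (11.1 to 14.95) of the lowest class (5.25 to 9.2) and 53.5% (50.6 to 56.4) of the highest (30.7 and above) held it, with an increase at every step. By IKAROS height the share went from 15.7% to 57.1%, and by AIOLOS height from 19.0% to 51.8%. With 3 classes of each height, HDAC2 was present in 15.9% of regions low in MTA2 and IKAROS, in 40.1% of the 294 low in MTA2 and high in IKAROS, in 31.2% of the 481 high in MTA2 and low in IKAROS, and in 51.9% of those high in both. The share thus differed along each height within a level of the other. With regions ordered by MTA2 fold over input the lowest and highest of the 10 classes held 21.95% and 35.5%, a smaller difference in the same direction. With 1 limit of 1e-10 on the p-value over input in all lists they held 4.60% and 30.2%.

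**Figure D3:**
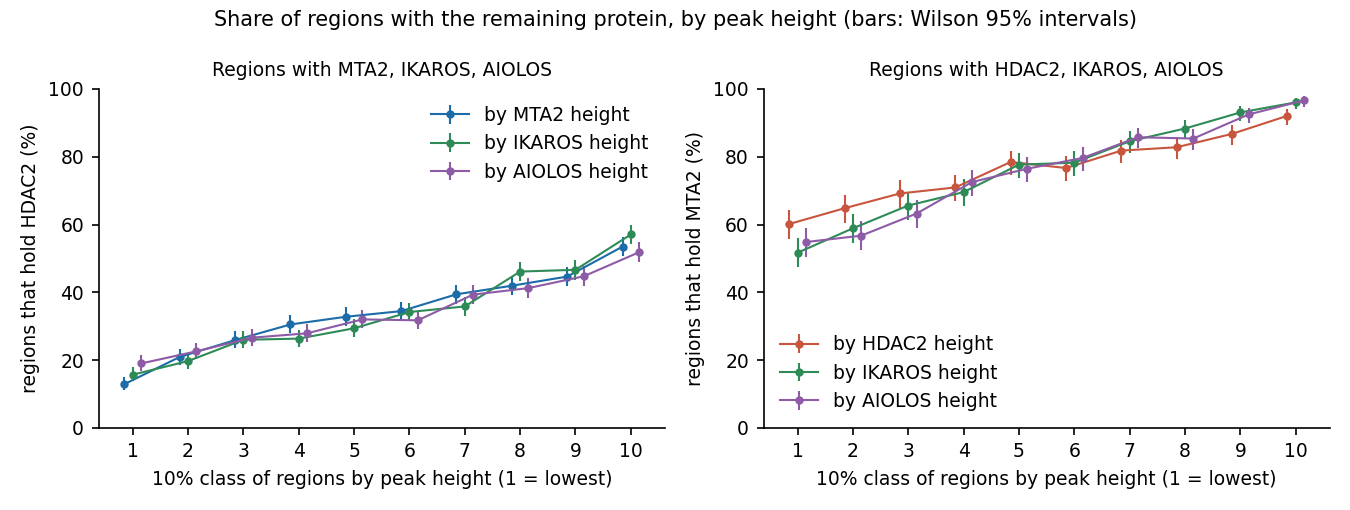
Left, share of regions with MTA2, IKAROS and AIOLOS that also hold HDAC2; right, share of regions with HDAC2, IKAROS and AIOLOS that also hold MTA2 (%), by 10% class of regions ordered by the height of each protein, none with Mi2, OCAB or OCT2; bars are Wilson 95% intervals. HDAC2 goes from 12.9% to 53.5% along MTA2 height, and MTA2 from 60.2% to 92.1% along HDAC2 height.

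In the other direction, MTA2 was found at most regions with HDAC2 and both factors. Of 5061 regions with HDAC2, IKAROS and AIOLOS and none of Mi2, OCAB and OCT2, 76.4% held MTA2. The share was 60.2% (55.8 to 64.3) in the lowest 10% by HDAC2 height and 92.1% (89.4 to 94.1) in the highest. By IKAROS height it went from 51.7% to 96.1%. The share was thus over 90% wherever HDAC2 or IKAROS was in its highest 10%.

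Many HDAC2 peaks here rested on few tags. The median HDAC2 peak held 16 tags, for which the exact 95% Poisson interval is 9.15 to 26.0. In 1120 regions (29.0%) it held at most 13 tags, and in 1334 (34.5%) its p-value over input was at most 1e-10. The other regions had HDAC2 peaks that such a limit would remove. With 1 limit of 1e-10 in every list 1415 regions met the definition, of which 1334 were among the 3865.

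The 4 peaks lay close together within a region, where the selection had joined peaks of 250 to 318 bp by overlap. Near centres and shared bases therefore follow in part by construction and are given as description. All 4 shared at least 1 base in 3503 regions (90.6%), with a median of 176 bp shared. The median distance between the outermost of the 4 centres was 108 bp (interquartile range 65 to 186 bp), and all centres fell within 100 bp in 1785 regions (46.2%) and within 50 bp in 627 (16.2%). IKAROS and AIOLOS were closest, with a median of 31 bp between centres. MTA2 lay 39 bp from IKAROS and 42 bp from AIOLOS, while HDAC2 lay 61 bp from IKAROS, 63 bp from MTA2 and 67 bp from AIOLOS. HDAC2 was the centre farthest from the others in 46.4% of regions, against 22.6% for MTA2, 17.8% for AIOLOS and 13.2% for IKAROS.

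**Figure D4:**
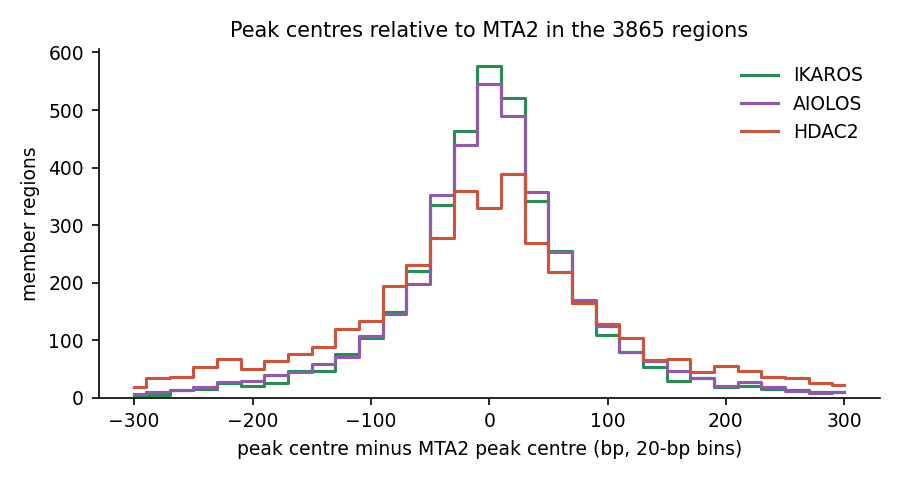
Number of the 3865 regions by distance of the IKAROS, AIOLOS and HDAC2 peak centres from the MTA2 centre (bp, in 20-bp bins, positive towards higher coordinates). All 3 distributions centre near 0, and HDAC2 is the broadest, with a median distance of 63 bp against 39 bp for IKAROS and 42 bp for AIOLOS.

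The distance between HDAC2 and MTA2 was shorter where the peaks were taller. It was 71 bp at the median in the lowest 25% by HDAC2 height and 52 bp in the highest, and 69 and 54 bp in the corresponding classes by MTA2 height. HDAC2 peaks were deposited with a width of 318 bp, MTA2 peaks with 250 bp, IKAROS peaks with 272 bp and AIOLOS peaks with 256 bp. A centre placed from few tags is less precise, and the part of depth in the wider spread of HDAC2 was not tested. MTA2 and IKAROS centres lay equally close in the regions without HDAC2 (41 bp) and with Mi2 (39 bp).

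A small number of regions sat at the edge of the definition. In 35 regions (0.906%) the weakest link between peaks was at most 10 bp, and in 2 it was 1 bp: the tall MTA2 region on chromosome 1 described above, and chromosome 17, 7358691 to 7359293, with MTA2 at 14.4, HDAC2 at 19.2, IKAROS at 49.2 and AIOLOS at 47.9. Just outside, 17 regions without HDAC2 had an HDAC2 peak within 10 bp, and 120 within 100 bp. Chromosome 17, 26989156 to 26989588, missed an HDAC2 peak of height 16.5 by 1 bp, with MTA2 at 46.0, IKAROS at 23.1 and AIOLOS at 24.3. Chromosome 11, 43333310 to 43333636, missed one of height 30.2 by 3 bp and had MTA2 at 132.7, IKAROS at 16.7 and AIOLOS at 34.2. Counting only peaks with centres within 100 bp of the MTA2 centre gave 2581 regions, of which 2074 were among the 3865. This rule also covered Mi2, OCAB and OCT2, so their peaks farther from the MTA2 centre counted as absent. The added regions may thus hold such a peak.

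Absence of Mi2, OCT2 and OCAB from a region did not mean absence nearby. A peak of at least 1 of them lay within 1 kb of 411 regions (10.6%) and within 10 kb of 1362 (35.2%, 33.8 to 36.8). Mi2 was the nearest of the 3, at a median of 42.0 kb, with 21.7% of regions within 10 kb of an Mi2 peak. OCT2 lay at a median of 52.2 kb (17.1% within 10 kb) and OCAB at 107.2 kb (9.97%). This order follows the lengths of the lists, of 10303 Mi2, 8129 OCT2 and 4440 OCAB peaks. In the 7607 regions without HDAC2 the medians were 47.2, 59.9 and 117.5 kb, and 31.2% (30.2 to 32.3) had one of the 3 within 10 kb. In the 11304 regions with only IKAROS and AIOLOS they were 52.9, 66.9 and 125.3 kb. In the 1049 regions with all 4 proteins and Mi2, the next Mi2, OCT2 and OCAB peaks lay at medians of 38.15, 50.55 and 105.3 kb. These medians were a little shorter than in the regions described here, so short median distances were not particular to the latter. Within 10 kb another Mi2 peak was less common in the regions with Mi2 (18.6%, 16.4 to 21.1) than here (21.7%, 20.4 to 23.0). Regions with Mi2 already hold a Mi2 peak, so these Mi2 shares are not alike by construction and no difference is read. The OCT2 (17.2%) and OCAB (9.85%) shares within 10 kb were close to those here. The medians of the regions described here were shorter than those without HDAC2 and those with only IKAROS and AIOLOS. For OCAB the order did not hold at every distance: within 3 kb the shares were 3.75% with all 4 proteins, 3.97% without HDAC2 and 3.76% with only IKAROS and AIOLOS, and at 10 kb the intervals with all 4 (9.07 to 10.96) and without HDAC2 (8.87 to 10.2) overlapped.

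**Figure D5:**
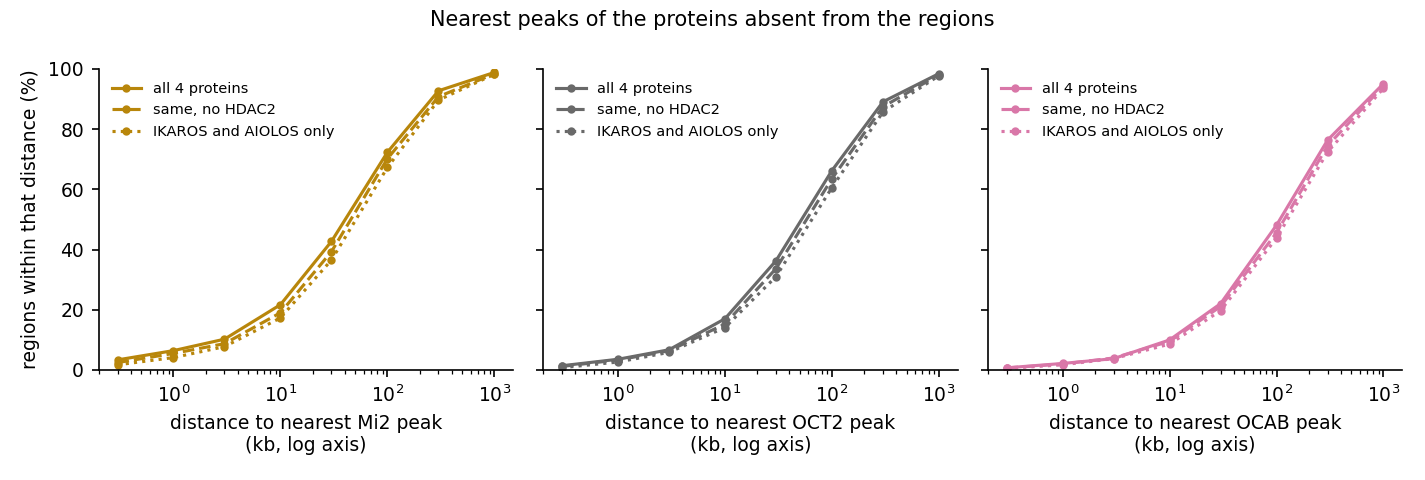
Share of regions (%) with a peak of Mi2 (left), OCT2 (middle) or OCAB (right) within a given distance (kb, logarithmic axis), for the 3865 regions (solid), the 7607 without HDAC2 (dashed) and the 11304 with only IKAROS and AIOLOS (dotted). The solid line is highest at 10 kb in each panel, at 21.7%, 17.1% and 9.97%.

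Other peaks of the 4 proteins themselves were common nearby. The nearest other IKAROS peak lay at a median of 7.08 kb, AIOLOS at 8.41 kb, MTA2 at 12.1 kb and HDAC2 at 23.2 kb. The medians around the regions without HDAC2 were similar, at 6.98, 9.04, 12.9 and 22.9 kb. Another HDAC2 peak lay within 1 kb of 5.98% (5.28 to 6.77) of the regions with all 4 proteins and of 10.1% (9.46 to 10.8) of those without HDAC2. HDAC2 peaks were called at least 636 bp apart, which limits close HDAC2 peaks only where a region already holds one. These HDAC2 shares are therefore not alike by construction, and no difference is read from them. Regions with the full definition were themselves sparse, at a median of 117.7 kb from the next, and 315 of 3859 (8.16%) lay within 10 kb of another.

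The densest stretches held up to 6 such regions in 100 kb. On chromosome 16, 30346816 to 30441736, 6 of 14 merged regions met the definition, with MTA2 from 11.4 to 33.3, HDAC2 from 10.1 to 22.9, IKAROS from 21.8 to 258.7 and AIOLOS from 13.1 to 248.4. A stretch of 86.4 kb on chromosome 8 held 6 of 9 regions and no Mi2, OCAB or OCT2 peak, with MTA2 from 13.6 to 42.9, HDAC2 from 11 to 17.4, IKAROS from 21.8 to 216.0 and AIOLOS from 18.1 to 210.4. On chromosome 10, 82204373 to 82270010, 5 of 12 regions met it, with MTA2 from 16.2 to 24.5 and IKAROS from 41.5 to 119.3. The highest MTA2 peak in them, at 42.9, was in the highest 10% of the 3865.

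The regions were spread over the chromosomes, with 3859 on chromosomes 1 to 22 and X. They made up between 3.41% (2.63 to 4.41) of merged regions on X and 6.81% (5.73 to 8.08) on chromosome 22. Of the regions with MTA2, IKAROS and AIOLOS and none of the 3 absent proteins, 22.2% (17.5 to 27.8) held HDAC2 on X and 34.0% (33.1 to 34.8) on chromosomes 1 to 22. The median MTA2 height in these was 10.1 on X and 16.2 on the others, and IKAROS stood at 28.2 and 36.8. Lower peaks and the lower HDAC2 share on X therefore came together, and the number of copies of each chromosome in the line was not analysed here.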

How the data were processed

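The data are 7 peak lists from 697 cells, 1 for each antibody and library, and an input library that enters through peak calling. The input values behind the HDAC2 list point to an input of another size, so whether this library served for HDAC2 is not known. The submitters' processing notes name CASAVA (1.8.2 and 1.4), HOMER 4.9.1, Bowtie2 2.3.2.2 and build hg19. The height the authors deposited is a signal, tags per 10 M tags. The tag number was deposited as a whole count in 5 lists and as a scaled signal for MTA2 and IKAROS. The deposited fold over input is a ratio, and the deposited p-value is HOMER's against input. The deposited fraction of tags near the centre and HOMER's deposited score support nothing here. No list was recorded as pooled.

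Peaks of all lists were merged where they shared at least 1 bp, chained, with Python 3.11.15, pandas 2.3.3 and numpy 2.4.6. Where a region held a pair of peaks of 1 protein the higher was used. Coordinates are as deposited and widths are end minus start. Depth was recovered from tags over height or from the steps of height, and input depth from the steps of the input values. Shares have Wilson 95% intervals (scipy 1.17.1). Merging was tested on simulated peaks. The regions, classes and comparisons were chosen with earlier results of these data known. Named regions lie on chromosomes 1 to 22 and X with all 4 peaks at least 4-fold over input: the 8 highest for MTA2, the 4 highest for each other protein, the 3 highest and 3 lowest ratios of HDAC2 to MTA2 and of IKAROS to AIOLOS (with MTA2, or IKAROS, above its median), and the 3 stretches of 100 kb with the most regions. Gene lists and sequences were not used here, as no hg19 annotation or genome was at hand. HDAC2 was the shallowest, at 10.9 M tags. The 7 alternatives tried are given in the closing section.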

Additional observations from a re-analysis of the deposited data

How the results depend on the processing

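No paired analysis was possible because each antibody had 1 library. Over the 7 alternatives, 23 of the 81 values that answer a comparison stayed within their counting interval or within 1.5 times the count. Another 54 moved, and 4 shares changed side of 25%, the nominal share in the top 25% of a list. Values follow in a fixed order: number of regions; shares in the top 25% of the list for MTA2, HDAC2, IKAROS and AIOLOS; MTA2 and IKAROS height ratios to the regions without HDAC2; rank correlation of MTA2 and HDAC2; their centre distance; nearest Mi2 peak; HDAC2 shares in the lowest and highest 10% of regions by MTA2. The limits on p-value, fold, number of peaks and centre distance also covered Mi2, OCAB and OCT2. Peaks of these proteins outside a limit counted as absent, so regions that were not among the 3865 could enter. With peak centres within 100 bp of the MTA2 centre, the shares were 38.0, 28.8 (now above the background), 72.0 and 54.9%, the ratios 1.30 and 1.53, the correlation 0.63, the distance 36 bp and the last pair 9.25 and 49.4%. With a p-value of at most 1e-10 in every list there were 1415 regions, shares of 42.1, 17.6, 70.3 and 56.8%, ratios of 1.43 and 1.69, a correlation of 0.66, distances of 56 bp and 36.4 kb, and a last pair of 4.60 and 30.2%. At 8-fold or more over input there were 1576 regions (1103 of them among the 3865). The shares were 35.6% for MTA2, 28.1% for HDAC2 (now above 25%) and 50.1% for AIOLOS. The ratios were 1.20 and 1.39, the correlation 0.74, the distances 52 bp and 68.7 kb, and the last pair 7.77 and 25.6%. The 4000 highest peaks of each list gave 275 regions (222 among the 3865), with shares of 26.6, 32.4 (now above 25%), 46.9 and 46.6%. The ratios were 1.11 and 1.19, the correlation 0.46, the distances 42 bp and 61.2 kb, and the last pair 45.6 and 75.4%. Without Mi2, OCAB or OCT2 within 1 kb there were 3454 regions, and the HDAC2 and AIOLOS shares were 21.0 and 42.9%, the MTA2 ratio 1.28 and the Mi2 distance 47.4 kb, longer by construction. On fold over input the shares were 20.7 (now below), 18.5, 44.4 and 32.8%, the ratios 1.15 and 1.32, the correlation 0.44 and the last pair 21.95 and 35.5%. Restriction to chromosomes 1 to 22 and X and widths of at most 1 kb gave 3859 regions and moved no such value. The lower region counts follow by construction, from fewer peaks entering or from the added distance rules; of the other changes the cause was not tested. Of 87 further values, 53 moved and 1 changed direction, the AIOLOS ratio to the regions with Mi2 (0.844, and 1.01 at 8-fold). A class without MTA2 could not be formed around an MTA2 centre, nor one with Mi2 where Mi2 was barred within 1 kb. HDAC2 had the lowest depth and the loosest limit, and their parts in its presence, centre and height were not tested.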

Other observations

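Outside chromosomes 1 to 22 and X, 6 further regions met the definition, and they enter the counts but none of the named regions. The tallest of all 3865 was among them, on 17_gl000205_random, 86138 to 86510 (hg19), a contig assigned to chromosome 17 without a position, with IKAROS at 2843.7, AIOLOS at 2941.9, MTA2 at 357.7 and HDAC2 at 148.4 tags per 10 M. Its fold over input was 274.66 for IKAROS, 240.95 for AIOLOS, 30.48 for MTA2 and 8.73 for HDAC2, and 22 input tags were deposited for its IKAROS peak against a median of 4 over the 3865 regions. On the unplaced contig Un_gl000220, 93413 to 93896, IKAROS stood at 309.2, AIOLOS at 160.0, MTA2 at 69.6 and HDAC2 at 43.1. All 4 proteins were above their medians in both.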
